A study of Mus musculus with 8 samples.

Results

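The genes described here are 35 genes of pyruvate metabolism and the tricarboxylic acid (TCA) cycle. They comprise pyruvate kinase (Pkm), both lactate dehydrogenases, the mitochondrial pyruvate carriers, the pyruvate dehydrogenase complex with its kinases and phosphatases, pyruvate carboxylase, the malic enzymes, and enzymes of the cycle from citrate synthase to malate dehydrogenase. They were chosen by gene symbol, and all 35 were found among the 31053 genes of the count matrices. Single-nucleus RNA sequencing (snRNA-seq) was performed on snap-frozen cortex of naive 6-week-old C57BL6J mice, and unique molecular identifiers (UMIs), each marking 1 captured RNA molecule, were counted per gene and nucleus. The Wt group held 4 mice with intact Ifnar1, which encodes a subunit of the type I interferon receptor. The Ifnar1-/- group held 4 mice that lacked this gene in every cell from conception and had been backcrossed to the same C57BL/6J background. Each group contained 2 females (F1, F2) and 2 males (M1, M2), each library came from 1 mouse, and no mouse was treated. The design asked how the transcriptome of each cortical cell class differs between Ifnar1-/- and wild-type mice, and the present description first asks how the genes are divided among the classes.

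Of 56780 barcodes, 52079 nuclei were kept after filters and removal of 2262 predicted doublets, and total UMIs per library ranged from 44063346 to 58423423. Clusters were named from marker genes and are called classes. They comprised 23805 glutamatergic neurons, 6547 GABAergic neurons (of which 2072 lay in a Pvalb interneuron cluster), 7074 oligodendrocytes, 454 oligodendrocyte precursors, 4385 microglia and 163 astrocytes. All 7 glutamatergic markers and all 8 markers of each of GABAergic neurons, oligodendrocytes, microglia and astrocytes gave UMIs in their class. This is a low bar, since all 8 oligodendrocyte, microglial and astrocyte markers also gave UMIs in glutamatergic neurons. In the astrocyte cluster 7 of the 8 astrocyte markers were seen in at least 10% of nuclei. In the astrocyte cluster the summed level of the 8 microglial markers ranged from 89.5 to 985.5 CPM (counts scaled to a common total of UMIs per library and class) and that of the 7 glutamatergic markers from 162.6 to 929.8 CPM, so this small cluster also held RNA of other classes. Wt F2 and Ifnar1-/- M1 had fewer than 10 astrocyte nuclei and were left out of astrocyte comparisons. Ifnar1 was at 16.2 to 19.9 CPM in Wt and 13.9 to 16.8 CPM in Ifnar1-/- libraries. The disrupted part of the gene is not given in the sources used here, so these counts could not check the genotype. Xist and Ddx3y matched the labelled sex in all 8 libraries.

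Pyruvate, the end product of glycolysis, is reduced to lactate by lactate dehydrogenase in the cytosol or carried into mitochondria. There the pyruvate dehydrogenase complex turns it into acetyl-CoA, which enters the TCA cycle, and pyruvate carboxylase turns it into oxaloacetate, which refills the cycle. Pyruvate dehydrogenase kinases switch the complex off and its phosphatases switch it on, and in brain the isoforms of these enzymes are known to differ between neurons and glia. UMIs of nuclei include unspliced RNA, so longer genes tend to give more of them, and levels are compared below between classes and libraries and not between genes.

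Ldha and Pdk1 were among the genes that were lower in GABAergic than in glutamatergic neurons and higher in males than in females, as described below. Their promoters, 250 bases before to 50 after the RefSeq transcript start, are shown as examples from RefSeq (GRCm38.p6), with the letters ACGTG or GCGTG, the core of the hypoxia response element, and their reverse complements CACGT and CACGC in capitals.
Ldha: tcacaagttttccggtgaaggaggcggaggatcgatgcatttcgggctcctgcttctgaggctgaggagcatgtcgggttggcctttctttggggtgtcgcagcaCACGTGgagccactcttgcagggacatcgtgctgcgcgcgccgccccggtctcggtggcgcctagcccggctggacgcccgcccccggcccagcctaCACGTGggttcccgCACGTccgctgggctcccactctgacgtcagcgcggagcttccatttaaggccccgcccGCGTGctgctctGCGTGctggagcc
Pdk1: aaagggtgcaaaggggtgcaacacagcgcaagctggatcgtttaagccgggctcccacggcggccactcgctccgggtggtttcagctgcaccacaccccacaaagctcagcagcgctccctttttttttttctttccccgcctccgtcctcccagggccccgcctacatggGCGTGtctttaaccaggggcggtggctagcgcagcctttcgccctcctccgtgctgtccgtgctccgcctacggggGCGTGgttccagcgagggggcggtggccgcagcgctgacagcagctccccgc
The Ldha sequence (chr7:46845554-46845853, plus strand) held 5 matches to ACGTG and 2 to GCGTG on either strand, where the palindrome CACGTG counts once on each strand. The Pdk1 sequence (chr2:71872974-71873273, plus strand) held 0 and 2. Each is the more upstream of the gene's 2 RefSeq promoters. ACGTG or its complement was present in 19.6% of all 32851 promoters and in 16 of the 45 promoters of the 32 genes of the set that have an entry, and GCGTG or its complement in 32.4% and in 22 of 45. The motifs are short and these matches are descriptions of sequence, not binding sites.

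Class differences were tested on UMIs summed per mouse and class with edgeR's quasi-likelihood test with Benjamini-Hochberg adjustment over all genes, and a gene was called when its adjusted p was under 0.05 and its fold change after TMM scaling was at least 2. Pdp2 was too low to be tested in any class comparison, which left 34 genes of the set. In GABAergic against glutamatergic neurons 1 was called higher and 3 lower, where 7.27% and 8.81% of all genes tested were called. In oligodendrocytes against glutamatergic neurons 8 were called higher and 5 lower, against 19.7% and 24.4% of all genes. Microglia against glutamatergic neurons gave 4 higher and 4 lower, against 24.8% and 26.9%, and 6 and 3 without TMM scaling. For astrocytes the counts were 7 higher and 4 lower, against 9.74% and 17% of all genes, and 10 and 3 without TMM. In microglia against oligodendrocytes 4 were called higher and 6 lower, against 17.5% and 16.9%. The share of the set called at 2-fold was therefore near or below that of all genes in the oligodendrocyte and microglial comparisons. The median log2 difference of the set was 0.10 in oligodendrocytes and 0.11 in microglia, beside 0.10 and 0.10 for all genes tested, and 0.08 in astrocytes beside -0.34. Leaving out TMM shifted the median of all genes by 0.139 for GABAergic neurons, 0.256 for microglia, 0.479 for astrocytes and 0.248 for microglia against oligodendrocytes, and no called gene of the set changed sign. The comparisons with glutamatergic neurons share those neurons' libraries.

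**Figure D1:**
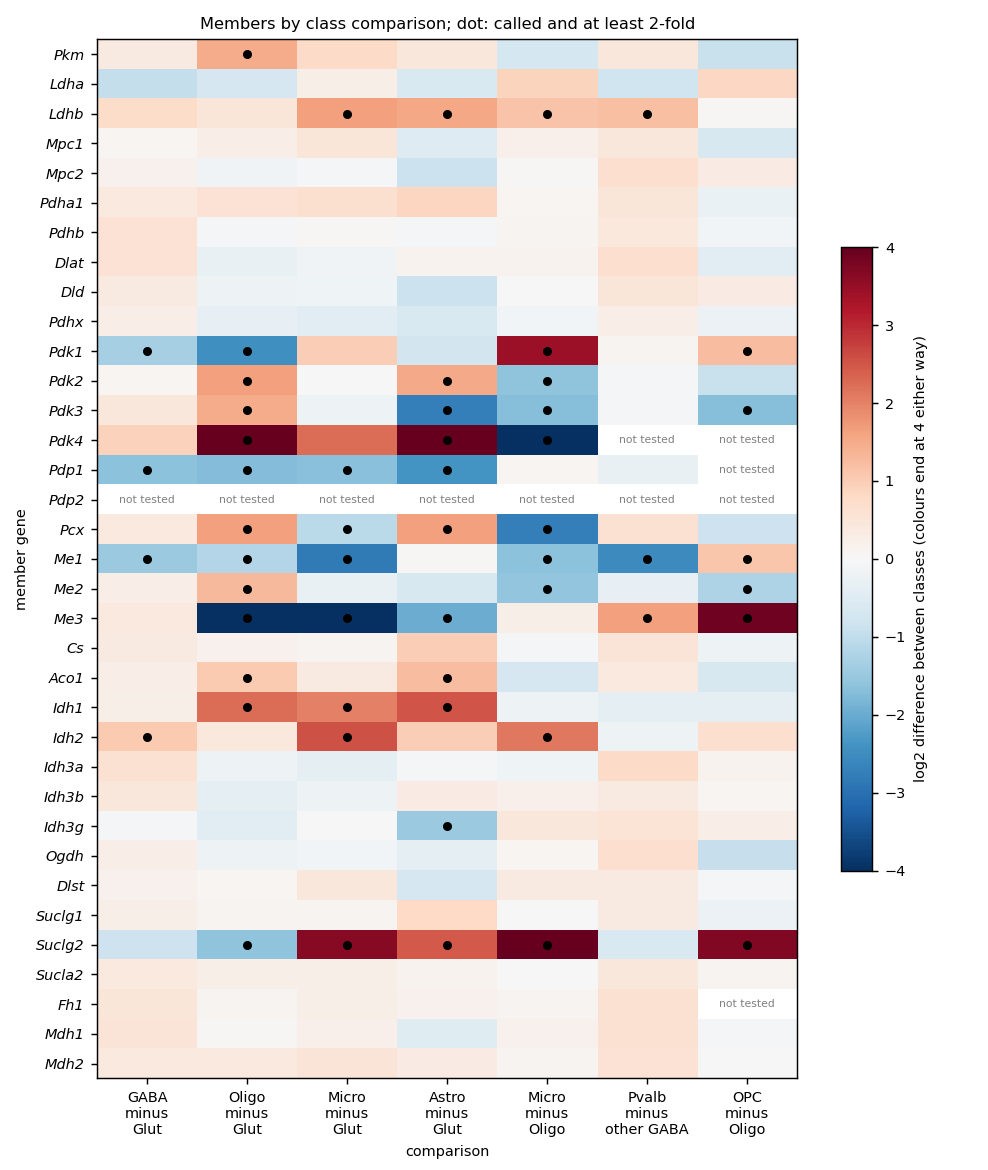
Log2 difference of each of the 35 genes (vertical axis, in order of role) in 7 class comparisons (horizontal axis, Glut: glutamatergic neurons, GABA: GABAergic neurons, Oligo: oligodendrocytes, Micro: microglia, Astro: astrocytes, OPC: oligodendrocyte precursors). Red is higher and blue lower in the class named first, a dot marks an adjusted p under 0.05 with at least a 2-fold difference, and the strongest colours fall on Pdk4, Me3, Suclg2 and Pdk1 while the subunits of the pyruvate dehydrogenase complex stay pale.

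Pkm, pyruvate kinase, which makes pyruvate (chromosome 9, 59656368 to 59679375 of GRCm38, the build of the deposited counts), had its highest level in oligodendrocytes. Its lowest, median and highest library values there were 127.2, 150.1 and 173.0 CPM, against 43.4, 51.1 and 72.6 CPM in glutamatergic neurons. The oligodendrocyte libraries all lay above the glutamatergic ones, and the difference of 1.48 ± 0.07 (log2, SE; adjusted p = 3.4e-23) passed the test. Pkm was also higher in GABAergic neurons (0.35 ± 0.07) and microglia (0.77 ± 0.09), by less than 2-fold.

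The lactate dehydrogenases divided by class. Ldha, whose product favours the making of lactate (chromosome 7, 46841475 to 46855627), gave 37.2, 41.1 and 43.2% (lowest, median and highest library) of Ldha and Ldhb UMIs in glutamatergic neurons. The Ldha share was 13.6, 17.3 and 21.6% in GABAergic neurons. It was 14.8, 22.2 and 27.2% in oligodendrocytes and 17.5, 20.6 and 27.1% in microglia. Within each of the 8 libraries the glutamatergic share was above that of GABAergic neurons, oligodendrocytes and microglia, whereas oligodendrocytes were above microglia in only 5 of 8. Both genes moved in GABAergic neurons. Ldha was lower by 0.96 ± 0.08 on the log2 scale, just under 2-fold (17.4 against 28.6 CPM at the median), and Ldhb, whose product favours the use of lactate, was higher by 0.75 ± 0.07 (72.6 against 41.8 CPM). Ldhb (chromosome 6, 142490249 to 142507957) was higher in microglia than in glutamatergic neurons, GABAergic neurons and oligodendrocytes, at 135.1, 167.7 and 211.7 CPM. There it exceeded glutamatergic neurons by 1.64 ± 0.08 and oligodendrocytes by 1.15 ± 0.09. In astrocytes Ldhb was higher than in glutamatergic neurons by 1.54 ± 0.22, on 84 UMIs. Its astrocyte values, given below by library, overlapped with those of microglia and reached above them.

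**Figure D2:**
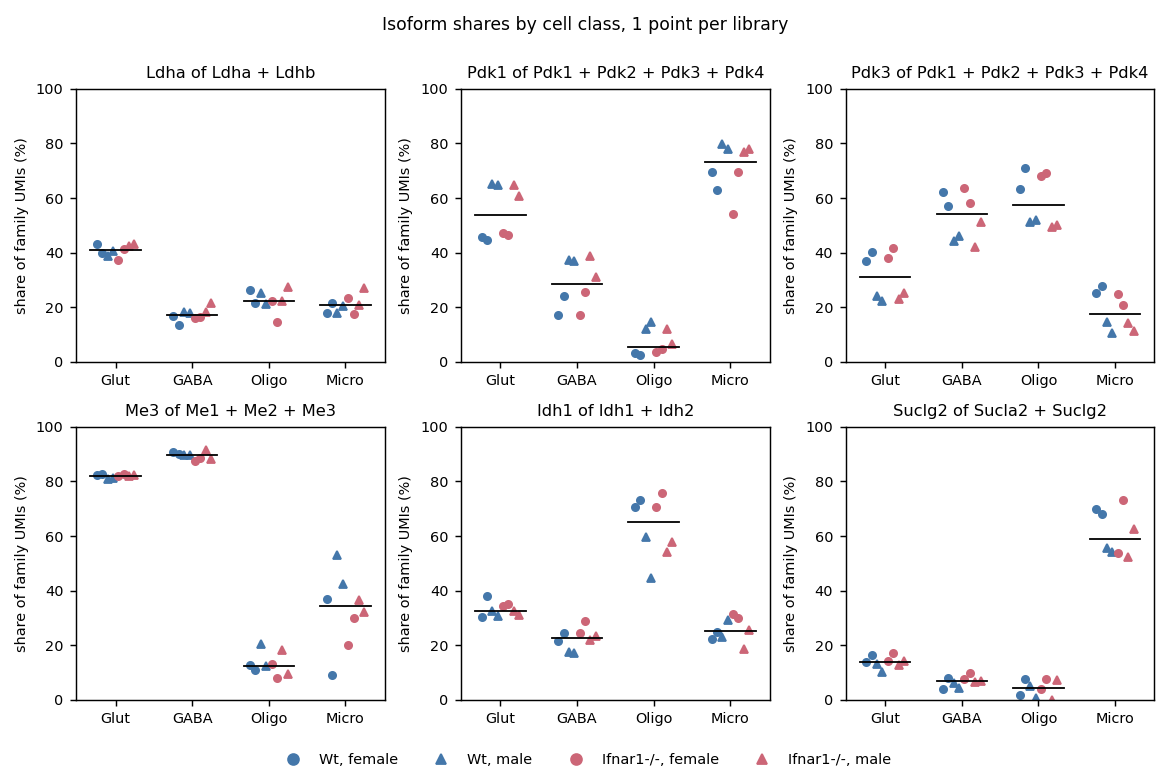
Share of each gene in the UMIs of its isoform family (vertical axis, %) by class (horizontal axis), with 1 point per library, colour for genotype, shape for sex and a line at the median of 8 libraries. Ldha shares lay at 37.2 to 43.2% in glutamatergic neurons and below 30% in the other classes shown. Me3 shares fell from above 80% in neurons to 7.84 to 20.5% in oligodendrocytes, and of the classes shown microglia had the highest Suclg2 shares.

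The carriers and the dehydrogenase complex itself differed little between classes. Mpc1 and Mpc2, the subunits of the mitochondrial pyruvate carrier, kept a similar ratio. The Mpc1 share was 71.9, 76.0 and 76.8% in glutamatergic neurons, 69.3, 74.1 and 76.9% in GABAergic ones, 77.2, 80.7 and 88.9% in microglia and 76.7, 80.1 and 85.1% in oligodendrocytes. It was higher in oligodendrocytes and in microglia than in glutamatergic neurons in 8 of 8 libraries. Of the complex, Pdha1 and Pdhb encode the dehydrogenase, Dlat the acetyltransferase core, Dld the dihydrolipoamide dehydrogenase and Pdhx the binding protein. None of these 5 genes was 2-fold apart in any class comparison. In GABAergic against glutamatergic neurons all 5 were higher at adjusted p under 0.05, from 0.26 ± 0.06 for Pdhx to 0.59 ± 0.06 for Dlat on the log2 scale. Oligodendrocytes had less Dlat (-0.29 ± 0.08), Dld (-0.19 ± 0.09) and Pdhx (-0.34 ± 0.08) and more Pdha1 (0.57 ± 0.12) than glutamatergic neurons, and Pdhb at -0.06 ± 0.08 did not pass the test.

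The 4 pyruvate dehydrogenase kinases, which phosphorylate and inactivate the complex, differed in their shares between classes. Pdk1 (chromosome 2, 71873224 to 71903858) gave 44.5, 53.9 and 65.0% of kinase UMIs in glutamatergic neurons, 17.2, 28.3 and 38.8% in GABAergic ones and 2.58, 5.54 and 14.7% in oligodendrocytes. In microglia its share was 54.2, 73.2 and 79.8%. The order microglia, glutamatergic neurons, GABAergic neurons, oligodendrocytes held within each of the 8 libraries. Pdk3 had a higher share in the classes where the Pdk1 share was low. It gave 42.0, 54.0 and 63.7% in GABAergic neurons and 49.4, 57.5 and 71.0% in oligodendrocytes. In glutamatergic neurons it gave 22.2, 31.1 and 41.6%, and in microglia 10.7, 17.5 and 27.7%. Its share in GABAergic neurons was below that in oligodendrocytes in 7 of 8 libraries. Pdk2 was 20.6, 28.1 and 40.4% of kinase UMIs in oligodendrocytes, above its 10.8, 13.6 and 17.3% in glutamatergic neurons and its 4.44, 9.51 and 16.7% in microglia.

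The levels themselves moved with these shares. Pdk1 was at 24.4, 39.4 and 68.7 CPM in glutamatergic neurons and at 2.48, 5.87 and 15.8 CPM in oligodendrocytes, a log2 difference of -2.45 ± 0.11 (adjusted p = 7e-25) with no overlap between the classes. In GABAergic neurons, at 9.61, 17.6 and 31.0 CPM, it was lower than in glutamatergic neurons by 1.32 ± 0.07, and in microglia, at 56.1, 102.6 and 150.3 CPM, it exceeded oligodendrocytes by 3.43 ± 0.12 and glutamatergic neurons by 0.98 ± 0.08. The wide ranges within a class followed the sex of the mice, as described below. Pdk2 (20.2, 32.8 and 43.2 CPM in oligodendrocytes, 7.05, 10.7 and 13.6 CPM in glutamatergic neurons) and Pdk3 (53.6, 63.2 and 79.4 against 20.1, 22.4 and 25.6 CPM) were higher in oligodendrocytes by 1.63 ± 0.10 and 1.49 ± 0.08. Against oligodendrocytes, microglia had less Pdk2 (-1.60 ± 0.17) and less Pdk3 (-1.70 ± 0.13).

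Pdk4 was highest in oligodendrocytes and astrocytes, on few UMIs. It was at 1.86, 5.17 and 7.01 CPM in oligodendrocytes, from 76 UMIs in 8 libraries, and gave 9 UMIs in all glutamatergic neurons. The ratio of CPM values over the pooled libraries was 119, with an exact 95% interval of 59.3 to 269 that covers counting error only, and the fitted log2 difference was 6.35 ± 0.37. Astrocytes of 6 libraries gave 7 UMIs, or 16.6 CPM over the pooled libraries, and their ratio to glutamatergic neurons was 377 (113 to 1260). Microglia gave 2 UMIs, a ratio of 0.0631 (0.00751 to 0.236) to oligodendrocytes. Astrocytes also had fewer Pdk3 UMIs: 2 in the 6 libraries, a ratio of 0.209 (0.0253 to 0.754) to glutamatergic neurons, while Pdk2 was higher there by 1.52 ± 0.45.

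Pdp1, a phosphatase that reactivates the complex, was highest in glutamatergic neurons. It was at 22.3, 35 and 51.5 CPM there, 6.65, 12.2 and 20.7 CPM in GABAergic neurons, 4.96, 11.3 and 15.7 CPM in oligodendrocytes and 2.74, 15.2 and 23.6 CPM in microglia. The log2 differences to glutamatergic neurons were -1.65 ± 0.08, -1.75 ± 0.11 and -1.68 ± 0.15. Glutamatergic neurons overlapped only with the highest microglial libraries. In astrocytes Pdp1 rested on 4 UMIs, a ratio of 0.275 (0.075 to 0.705). The second phosphatase, Pdp2, gave 260 UMIs in all glutamatergic neurons and 31 or fewer in each glial class, so its share of 2.29, 3.13 and 4.24% of phosphatase UMIs in glutamatergic neurons and of 5.26, 14.9 and 33.3% in oligodendrocytes is given with no test.

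Pcx, pyruvate carboxylase, which makes oxaloacetate and is known in brain as a mainly glial enzyme, was at 63.7, 75.0 and 79.1 CPM in oligodendrocytes. This was above every glutamatergic library (20.6, 23.1 and 27.0 CPM), by 1.64 ± 0.07 on the log2 scale. Microglia had the least, 4.92, 13.9 and 18.7 CPM, and differed from oligodendrocytes by -2.73 ± 0.14 and from glutamatergic neurons by -1.09 ± 0.15. In astrocytes Pcx ranged from 23.2 to 264.0 CPM around a median of 96.0 CPM, on 43 UMIs, and was higher than in glutamatergic neurons by 1.65 ± 0.28 (adjusted p = 4.3e-06).

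The malic enzymes turn malate into pyruvate, Me1 in the cytosol and Me2 and Me3 in mitochondria. The Me3 share separated glutamatergic and GABAergic neurons from oligodendrocytes and microglia, but not all glia were low, since oligodendrocyte precursors had much Me3, as described below. The levels of Me1 and Me2 did not divide these classes in this way. Me3 (chromosome 7, 89632392 to 89854359) gave 80.8, 82.1 and 82.6% of malic enzyme UMIs in glutamatergic neurons and 87.4, 89.8 and 91.4% in GABAergic neurons, but 7.84, 12.5 and 20.5% in oligodendrocytes and 9.09, 34.5 and 53.1% in microglia. Its level was 244.2, 278.0 and 295.8 CPM in glutamatergic neurons, 7.17, 9.88 and 21.9 CPM in oligodendrocytes and 2.74, 17.1 and 30.8 CPM in microglia, and the log2 differences were -4.59 ± 0.14 and -4.36 ± 0.16. The neuronal genes Slc17a7, Snap25, Syt1, Nrgn, Camk2a, Rbfox3, Grin2b and Kcnq5, used as a gauge of free neuronal RNA, were seen in oligodendrocytes at 3.17 to 11.8% of their glutamatergic level and in microglia at 4.8 to 15.9%. In astrocytes the gauge ran from 1.73 to 52.8%, around a median of 15.5%, and with free RNA subtracted 18 genes of the set (6 higher and 12 lower) in place of 11 were called there. The share of all genes called after subtraction is not given here, so this count has no comparison. Once free RNA was subtracted from oligodendrocytes and microglia, no Me3 was left in either class, so their Me3 UMIs did not exceed the background.

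Me2 had a higher share in oligodendrocytes, with 59.4, 68.1 and 77.1% of malic enzyme UMIs against 6.47, 6.87 and 8.10% in glutamatergic neurons. Its level there was 44.2, 60.7 and 70.5 CPM, against 20.6, 23.4 and 26.3 CPM in glutamatergic neurons and 17.3, 22.6 and 27.1 CPM in microglia, and the log2 difference to glutamatergic neurons was 1.30 ± 0.07. The difference of microglia minus oligodendrocytes was -1.59 ± 0.11. Me1 was highest in glutamatergic neurons, at 30.8, 37.3 and 40.7 CPM. It was lower in GABAergic neurons by 1.47 ± 0.08 (12.4, 14.7 and 17.5 CPM), in oligodendrocytes by 1.18 ± 0.10 (9.55, 16.4 and 20.9 CPM) and in microglia by 2.83 ± 0.18 (2.74, 5.34 and 11.8 CPM). None of these 3 classes overlapped with glutamatergic neurons.

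In the cycle itself, citrate synthase (Cs), the first enzyme, was 2-fold apart in no comparison. It was higher in GABAergic neurons by 0.35 ± 0.05 and in astrocytes by 0.99 ± 0.21, just under 2-fold. Aco1, the cytosolic aconitase and iron regulatory protein, was higher than in glutamatergic neurons in oligodendrocytes (1.05 ± 0.10, 34.8 against 16.8 CPM at the median) and in astrocytes (1.24 ± 0.40).

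The isocitrate dehydrogenases gave a further class pattern. Idh1 is the cytosolic and Idh2 the mitochondrial enzyme that uses NADP. Idh1 made up 44.6, 65.0 and 75.9% of Idh1 and Idh2 UMIs in oligodendrocytes, above the 30.3, 32.6 and 38.0% of glutamatergic neurons in 8 of 8 libraries. The share was 17.0, 22.6 and 28.8% in GABAergic neurons and 18.6, 25.3 and 31.6% in microglia, where GABAergic neurons lay above microglia in 1 of 8 libraries. The level of Idh1 was higher than in glutamatergic neurons (4.41, 4.89 and 5.94 CPM) in oligodendrocytes (14.5, 24.3 and 34.1 CPM, 2.23 ± 0.13), in microglia (16.0, 25.4 and 34.5 CPM, 2.02 ± 0.17) and in astrocytes (2.50 ± 0.50, on 20 UMIs). Microglia also had the most Idh2, with 54.3, 68.7 and 91.5 CPM. Glutamatergic neurons had 8.45, 10.4 and 12.2 CPM and oligodendrocytes 7.76, 13.0 and 19.7 CPM of Idh2, and the microglial excess was 2.54 ± 0.11 and 2.12 ± 0.13. Idh2 was the single gene of the set called higher in GABAergic neurons, at 16.4, 23.7 and 28.6 CPM and 1.05 ± 0.08.

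Idh3a, Idh3b and Idh3g encode the subunits of the NAD-dependent enzyme of the cycle. Idh3g was lower than in glutamatergic neurons by 1.48 ± 0.48 in astrocytes, on 7 UMIs, and none of the 3 was 2-fold apart elsewhere. The Idh3b share of their UMIs was 49.4, 51.3 and 57.1% in glutamatergic neurons, 49.8, 56.5 and 61.4% in GABAergic ones, 39.5, 51.3 and 57.8% in microglia and 44.9, 47.5 and 61.6% in oligodendrocytes. These ranges overlapped. Ogdh and Dlst, subunits of the 2-oxoglutarate dehydrogenase complex, were 2-fold apart in no comparison.

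Succinyl-CoA synthetase pairs the common subunit Suclg1 with Sucla2, which makes ATP, or Suclg2, which makes GTP. Suclg2 (chromosome 6, 95473009 to 95718800) gave 52.4, 59.1 and 73.1% of Sucla2 and Suclg2 UMIs in microglia, against 10.1, 14 and 17.2% in glutamatergic neurons, 3.94, 6.73 and 9.76% in GABAergic ones and 0, 4.35 and 7.69% in oligodendrocytes. The level was 79.8, 97.5 and 142.3 CPM in microglia, 6.15, 7.10 and 8.10 CPM in glutamatergic neurons and 0, 2.58 and 4.18 CPM in oligodendrocytes. All microglial libraries lay above all glutamatergic and oligodendrocyte ones, by 3.65 ± 0.12 against glutamatergic neurons (adjusted p = 5.4e-30) and 5.26 ± 0.21 against oligodendrocytes. Suclg2 was also higher in astrocytes (2.45 ± 0.49, 23 UMIs), and in that cluster microglial marker RNA was present as stated above. Whether it accounts for part of the value was not tested. Sucla2 and Suclg1 were 2-fold apart in no comparison. Fumarase (Fh1) and both malate dehydrogenases were not either, and the share of Mdh1, the cytosolic one, was 70.9, 75.8 and 79.4% in glutamatergic neurons, 72.9, 76.6 and 82.9% in GABAergic ones, 62.2, 72.7 and 90.5% in microglia and 65.1, 71.3 and 75.5% in oligodendrocytes.

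At any fold, most of the set was higher in GABAergic than in glutamatergic neurons: 24 genes were higher and 5 lower at adjusted p under 0.05, where 33.9% and 30.1% of all genes were. The 5 lower ones were Ldha, Pdk1, Pdp1, Me1 and Suclg2. The median difference of the set was 0.35, beside 0.03 for all genes tested. The GABAergic class includes the Pvalb cluster (2072 of 6547 nuclei), where most of the set was higher than in other GABAergic neurons, as described next. Other GABAergic neurons were not tested on their own against glutamatergic neurons. Their median Me3 level, given below, was lower than the glutamatergic median, so the pooled result need not hold for them.

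Pvalb interneurons, which fire fast and are known for a high energy demand, showed the same direction within the GABAergic class. Of 33 genes tested against other GABAergic neurons, 23 were higher and 4 lower at adjusted p under 0.05, against 26% and 26.4% of all genes tested, and the median difference was 0.45 beside -0.0039 for all genes. With the 2-fold threshold 2 were higher and 1 lower, against 3.2% and 7.33%. Me3 was at 595.5, 717.1 and 751.4 CPM in Pvalb interneurons and at 191.7, 222.3 and 251.9 CPM in other GABAergic neurons, a difference of 1.65 ± 0.03 (adjusted p = 1.6e-31). Ldhb was at 104.1, 119.9 and 198.7 against 42.6, 49.7 and 78.7 CPM, a difference of 1.19 ± 0.05. Me1 was at 1.6, 3.78 and 5.56 against 18.1, 20.8 and 23.4 CPM, a difference of -2.54 ± 0.16. None of the 3 pairs of ranges overlapped.

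The remaining genes of the set shifted by less than 2-fold. Higher in Pvalb interneurons were Idh3a (0.76 ± 0.08), both carriers (Mpc1 0.45 ± 0.04, Mpc2 0.68 ± 0.06), all 5 subunits of the dehydrogenase complex, Pcx (0.61 ± 0.08), Cs, Ogdh (0.66 ± 0.04), Dlst, Sucla2, Suclg1, Fh1, Mdh1 (0.61 ± 0.04), Mdh2, Pkm, Aco1, Idh3b and Idh3g. Ldha (-0.80 ± 0.12), Me2 and Suclg2 were lower. The kinases Pdk1, Pdk2 and Pdk3 did not pass the test, with differences of 0.12 ± 0.10, -0.08 ± 0.14 and -0.07 ± 0.08. The Ldha share was 4.42, 9.05 and 10.4% in Pvalb interneurons and 22.9, 26.2 and 31.5% in other GABAergic neurons, lower in 8 of 8 libraries. The Me1 share was 0.207, 0.536 and 0.708% against 6.41, 7.54 and 8.38%.

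**Figure D3:**
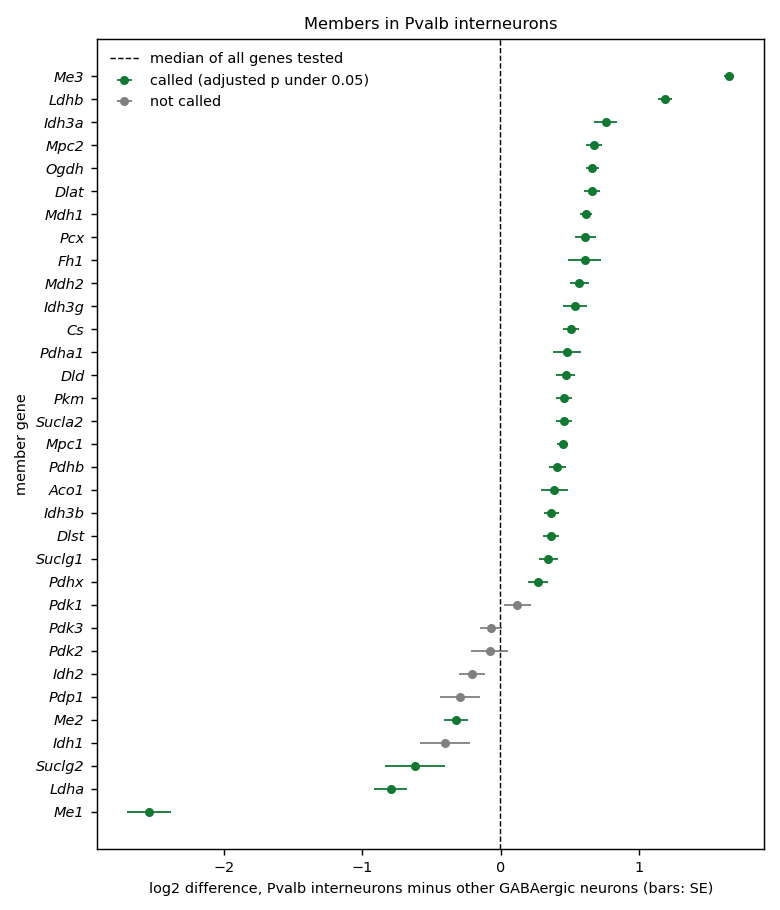
Log2 difference between Pvalb interneurons and other GABAergic neurons (horizontal axis, bars are SE from the fit over 8 mice) for the 33 genes tested (vertical axis, ordered by difference), with the median of all genes as a dashed line near 0. Most points lie between 0.3 and 0.8, Me3 and Ldhb lie above 1, and Me1 lies at -2.54.

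Oligodendrocyte precursors differed from oligodendrocytes in 6 of 31 genes tested at 2-fold, 4 higher and 2 lower, where 16.8% and 13.7% of all genes were called. Me3 was at 143.9, 176.2 and 226.0 CPM in precursors, above every oligodendrocyte library (3.88 ± 0.20). Suclg2 was at 13.8, 39.5 and 48.9 CPM (3.71 ± 0.41), and its share of 16.7, 37.5 and 45.5% lay above the highest oligodendrocyte share of 7.69%. Me1 (1.12 ± 0.27) and Pdk1 (1.23 ± 0.42) were higher as well. Pdk3, at 0, 23.9 and 31.2 CPM, was lower by 1.72 ± 0.26, and Me2, at 0, 19.4 and 64.2 CPM, by 1.23 ± 0.27 with overlapping libraries. Precursor libraries held 15 to 142 nuclei. The median difference of the set was -0.07 beside -0.06 for all genes.

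Of the other genes of the pathway, the glycolytic list (13 of its 15 matrix genes tested) had no gene 2-fold apart between GABAergic and glutamatergic neurons, 2 higher and 5 lower in oligodendrocytes, and 4 higher and 3 lower in microglia. In oligodendrocytes the higher ones were Aldoc and Hk2, and the lower ones Hk1, Pfkl, Pfkm, Pfkp and Eno2. Of 5 glucose and monocarboxylate transporters, Slc16a1, Slc16a3 and Slc2a1 were higher and Slc2a3, the neuronal glucose transporter, was lower in oligodendrocytes. Of 18 genes linked to the cycle, 3 (Acly, Glul and Slc25a13) were higher there. Of all genes tested, 19.7% were called higher and 24.4% lower in oligodendrocytes than in glutamatergic neurons. The shares were 24.8% and 26.9% in microglia and 7.27% and 8.81% in GABAergic neurons.

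Between genotypes no gene of the set was called in any class tested. By edgeR's quasi-likelihood test 0 of 34 were called in glutamatergic neurons, 0 of 34 in GABAergic ones, 0 of 33 in oligodendrocytes, 0 of 31 in microglia, 0 of 1 in astrocytes and 0 of 35 in all nuclei summed. Of all genes tested, 0.0604%, 0.0273%, 0.0633%, 0.105%, 0% and 0.0501% were called. DESeq2 also called 0 in each. At an unadjusted p under 0.05 either tool found 1 gene of the set, Pdha1 in oligodendrocytes, and 0 in the other classes. The median difference of the set, Ifnar1-/- minus Wt, was 0.06 in microglia, -0.06 in oligodendrocytes, -0.08 in GABAergic neurons and -0.06 in glutamatergic ones. The medians of all genes in this fit are not given here, so those of the set are a description only. This fit left out sex. Its widest 95% intervals were those of genes that also varied with sex or had few UMIs, such as Pdk1 in glutamatergic neurons, -1.07 to 0.81. Differences under about 2-fold were therefore not detectable in this fit for every gene. With sex as a covariate edgeR's test again called 0 genes of the set in each class. An unadjusted p under 0.05 was then found for Dlst in GABAergic neurons and Pdha1 in oligodendrocytes and microglia.

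Pdha1 (chromosome X, 160122209 to 160138413) encodes the catalytic subunit that the kinases phosphorylate. In oligodendrocytes it was at 12.6, 10.6, 19.7 and 17.5 CPM in Wt F1, F2, M1 and M2, and at 29.0, 19.1, 18.1 and 33.1 CPM in the Ifnar1-/- libraries in the same order. The means were 15.1 ± 4.24 and 24.8 ± 7.36 CPM (SD, n = 4 each), and 2 Ifnar1-/- libraries lay within the range of Wt. The log2 difference was 0.74 ± 0.26 (95% interval 0.17 to 1.31), with an adjusted p of 1 by edgeR's quasi-likelihood test with Benjamini-Hochberg adjustment. In microglia the values were 12.6, 15.1, 32.6 and 23.0 CPM in Wt and 40.3, 26.1, 28.3 and 40.2 CPM in Ifnar1-/- libraries, a difference of 0.70 ± 0.32 that did not pass the test (adjusted p = 1). In glutamatergic neurons, where Pdha1 was again the gene with the smallest unadjusted p, the means were 12.9 ± 1.88 and 14.4 ± 1.58 CPM, a difference of 0.17 ± 0.13 (-0.13 to 0.47). The libraries were at 12.4, 11.7, 12.0 and 15.7 CPM in Wt and at 14.9, 12.1, 14.7 and 15.8 CPM in Ifnar1-/- mice, and overlapped.

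The genes with the smallest unadjusted p in the other classes did not pass the test either. Me3 in GABAergic neurons was at 446.6, 416.0, 423.8 and 387.5 CPM in Wt and at 324.2, 387.0, 410.8 and 370.3 CPM in Ifnar1-/- libraries, a difference of -0.16 ± 0.09 with overlap. In astrocytes Ldhb, the 1 gene with enough UMIs, was at 185.8, 218.8 and 290.4 CPM in Wt F1, M1 and M2 and at 157.1, 79.9 and 179.0 CPM in Ifnar1-/- F1, F2 and M2. These 3 against 3 libraries did not overlap, the difference was -0.67 ± 0.39 (-1.56 to 0.23) and the adjusted p 0.991. In all nuclei summed Suclg2 was at 9.22, 9.25, 8.68 and 8.18 CPM in Wt and 8.78, 11.1, 9.39 and 10.4 CPM in Ifnar1-/- libraries, a difference of 0.17 ± 0.12 with overlap. In GABAergic neurons Suclg2 did not overlap between genotypes, with 2.61, 4.77, 4.37 and 3.61 CPM in Wt and 5.02, 5.55, 4.92 and 4.80 CPM in Ifnar1-/- libraries, and its difference of 0.42 ± 0.23 did not pass (adjusted p = 1). The share of all genes without overlap between genotypes was not counted, so the lack of overlap is a description only.

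**Figure D4:**
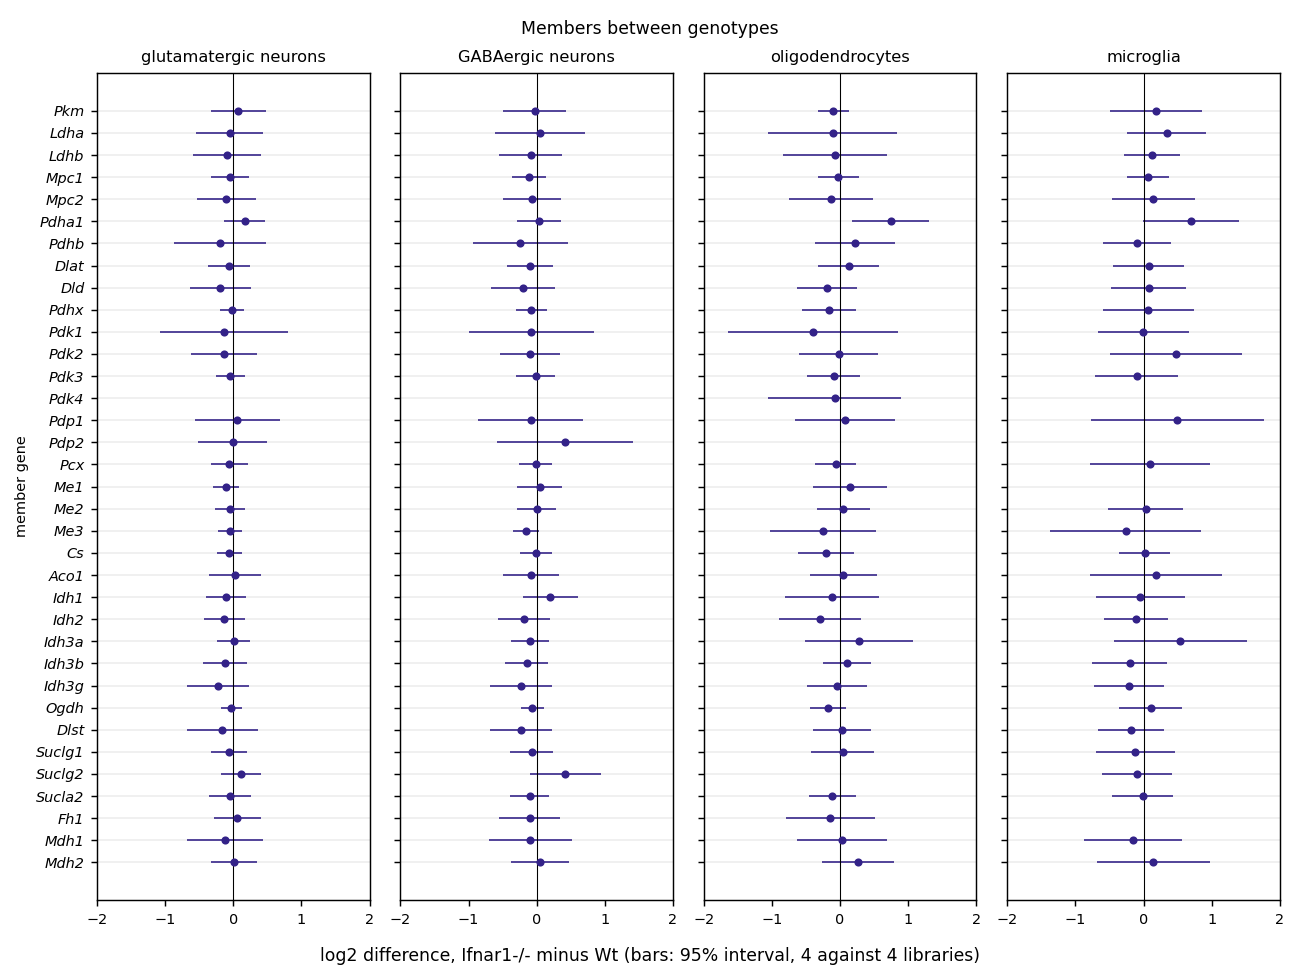
Log2 difference between Ifnar1-/- and Wt (horizontal axis, bars are 95% intervals, 4 against 4 libraries) for each gene of the set (vertical axis) in 4 classes, with genes not tested left blank. All intervals cross 0 except that of Pdha1 in oligodendrocytes, which runs from 0.17 to 1.31 and whose adjusted p was 1.

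Whether the genotype effect differed between classes was tested as an interaction within mice. In GABAergic neurons against glutamatergic neurons 0 of 34 genes were called, in oligodendrocytes 0 of 35 and in microglia 0 of 34, where 0.0338%, 0.0462% and 0.0281% of all genes were. At an unadjusted p under 0.05 edgeR's test gave 0, 2 and 0, the 2 being Pdhb (0.41 ± 0.16) and Pdha1 (0.55 ± 0.22) in oligodendrocytes minus glutamatergic neurons. DESeq2 was not run for the interaction. The glycolytic, transporter and cycle-linked lists had no gene called between genotypes in any class by edgeR's test, and at an unadjusted p under 0.05 they had 1, a cycle-linked gene in microglia.

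The libraries separated by the sex of the mice. Males were compared with females with genotype as a covariate, 4 against 4. In glutamatergic neurons 14 of 34 genes were called higher in males and 0 lower, where 16.5% and 13.7% of all genes were called. GABAergic neurons had 10 higher and 1 lower, against 14.6% and 11% (15 and 0 without TMM). Oligodendrocytes had 8 higher and 2 lower of 33, against 13.3% and 9.4% (12 and 0 without TMM, where the median of all genes shifted by 0.112). Microglia had 6 higher and 0 lower of 31, against 11.9% and 7.9%. The median difference of the set was 0.23, 0.23, 0.34 and 0.28 on the log2 scale, beside 0.00058, 0.0061, 0.0062 and -0.013 for all genes. Pdk1, Mdh1 and Mpc2 were called in all 4 classes.

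Pdk1 had the largest sex difference in glutamatergic neurons. It was at 26.7, 24.4, 25.1 and 27.2 CPM in the females (Wt F1, Wt F2, Ifnar1-/- F1, Ifnar1-/- F2, the order used below) and at 68.7, 67.3, 64.3 and 51.7 CPM in the males. GABAergic neurons had 10.4, 12.4, 9.61 and 13.1 CPM in females and 27.0, 31.0, 30.6 and 22.0 CPM in males. No male library overlapped with a female one in these classes. In oligodendrocytes it was at 4.02, 2.48, 3.28 and 4.78 CPM in females and 14.4, 15.8, 13.9 and 6.96 CPM in males. In microglia it was at 78.9, 56.1, 74.8 and 79.6 CPM in females and 150.3, 135.6, 125.5 and 126.0 CPM in males, again without overlap. The log2 differences were 1.22 ± 0.09 (adjusted p = 2.48e-05), 1.21 ± 0.15 (0.000351), 1.63 ± 0.34 (0.00441) and 0.86 ± 0.16 (0.00213) by edgeR's quasi-likelihood test with Benjamini-Hochberg adjustment.

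**Figure D5:**
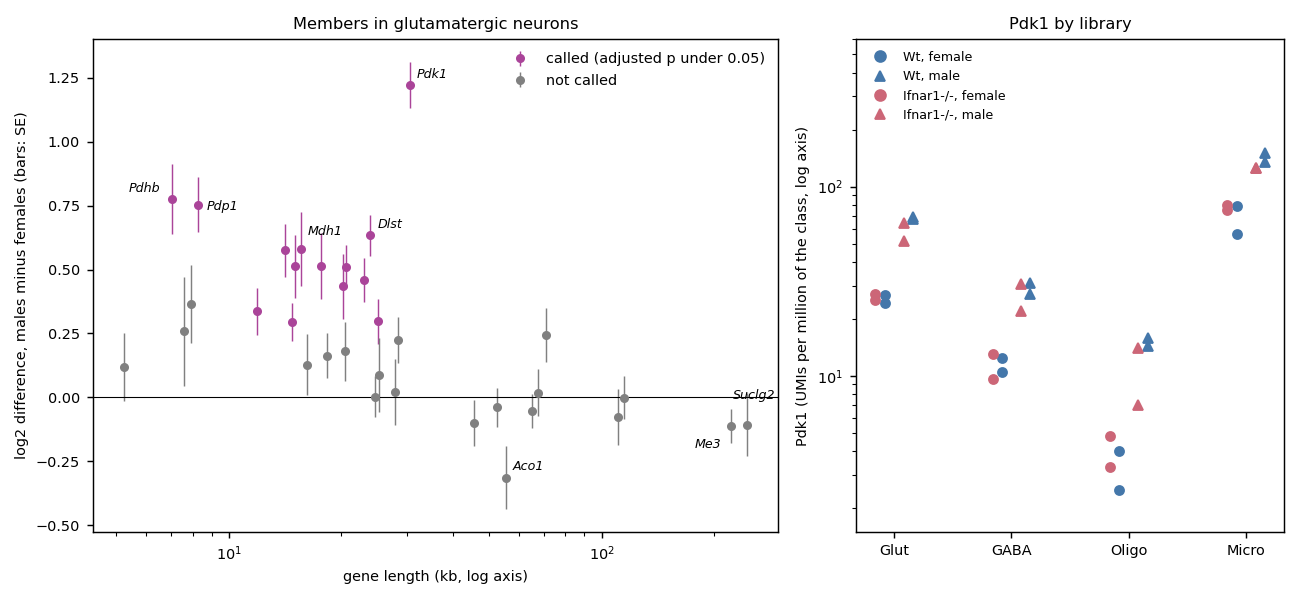
Left, log2 difference between males and females in glutamatergic neurons (vertical axis, bars are SE) against gene length (horizontal axis, kb, log scale) for the 34 genes tested, where all 14 called genes are shorter than 50 kb. Right, Pdk1 (vertical axis, CPM, log scale) by class with 1 point per library, where males lie above females in each class, from 51.7 to 68.7 against 24.4 to 27.2 CPM in glutamatergic neurons.

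Of the genes before the mitochondrion, Pkm was at 44.5, 43.4, 44.3 and 45.7 CPM in females and 56.4, 68.3, 72.6 and 58.4 CPM in males in glutamatergic neurons (0.46 ± 0.09). Ldha was at 26.0, 24.7, 25 and 23.6 CPM in females and 37.9, 41.5, 44 and 31.2 CPM in males (0.58 ± 0.10). Ldhb was at 34.2, 37.6, 42.3 and 33.5 CPM in females and 59.6, 60.3, 59.8 and 41.4 CPM in males (0.52 ± 0.13). Ldhb alone of the 3 overlapped, through Ifnar1-/- M2, the male library with the lowest value. In GABAergic neurons Pkm ranged from 55.5 to 66.2 CPM in females and from 79.1 to 104.9 CPM in males, Ldha from 10.9 to 14.1 and from 20.7 to 26.6 CPM, and Ldhb from 63.9 to 70.3 and from 75.0 to 119.6 CPM, without overlap. In oligodendrocytes Ldha was at 12.6, 12.4, 15.8 and 5.38 CPM in females and 31.9, 25, 26.5 and 27.5 CPM in males (1.14 ± 0.24), and Ldhb ranged from 31.1 to 55.7 and from 73.5 to 94.4 CPM. Pkm in microglia ranged from 61.6 to 103.6 CPM in females and from 106.9 to 161.3 CPM in males. Because both lactate dehydrogenases moved, the Ldha share in glutamatergic neurons was 40.4% in females and 41.3% in males on average.

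The carriers were higher in males. Mpc2 in glutamatergic neurons was at 38.8, 35.2, 33.8 and 33.8 CPM in females and 51.4, 57.9, 55.9 and 45.4 CPM in males (0.51 ± 0.08). It ranged from 40.2 to 52.3 against 56.9 to 73.8 CPM in GABAergic neurons (0.47 ± 0.11), from 24.8 to 33.2 against 47.4 to 58.7 CPM in oligodendrocytes (0.77 ± 0.15), and from 28.8 to 46.0 against 54.9 to 68.8 CPM in microglia (0.67 ± 0.19). No class overlapped. Mpc1 was called in glutamatergic neurons alone, at 128.7, 114.8, 109.5 and 104.2 CPM in females and 140.1, 148.2, 147.1 and 148.6 CPM in males (0.29 ± 0.08), and whether its effect differed between classes was not tested.

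In the dehydrogenase complex, Pdhb was at 29.2, 19.2, 21.6 and 18.7 CPM in females and 41.8, 42.1, 42.3 and 31.8 CPM in males in glutamatergic neurons (0.78 ± 0.14). It was also called in GABAergic neurons (26.7 to 51.8 against 49.6 to 71.4 CPM, overlapping) and in oligodendrocytes (16.1 to 27.1 against 31.5 to 48.1 CPM). Dlat was at 44.2, 34.8, 38.0 and 35.7 CPM in females and 47.5, 52.4, 49.1 and 46.7 CPM in males in glutamatergic neurons. Dld was at 30.7, 29.4, 27.0 and 29.8 CPM in females and 41.6, 49.7, 45.5 and 28.9 CPM in males there, and ranged from 36.5 to 44.8 against 42.7 to 67.8 CPM in GABAergic neurons. Dld overlapped in both classes, through Ifnar1-/- M2. Of the regulators, Pdk2 in glutamatergic neurons was at 10.1, 8.38, 7.71 and 7.05 CPM in females and 11.4, 13.6, 12.3 and 12.0 CPM in males. Pdp1 was at 24.7, 26.8, 28.9 and 22.3 CPM in females and 43.1, 45.3, 51.5 and 41.1 CPM in males there (0.75 ± 0.11), from 6.65 to 10.0 against 14.4 to 20.7 CPM in GABAergic neurons, and at 4.20, 2.74, 23.0 and 8.71 against 23.6, 16.8, 13.5 and 22.1 CPM in microglia, where the sexes overlapped. Pdk3 in oligodendrocytes went the other way, at 79.4, 68.3, 63.9 and 72.3 CPM in females and 62.5, 55.6, 57.2 and 53.6 CPM in males (-0.43 ± 0.11, no overlap).

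In the cycle, Mdh1 was at 65.9, 76.6, 76.4 and 68.4 CPM in females and 120.3, 123.0, 131.2 and 76.2 CPM in males in glutamatergic neurons (0.58 ± 0.14), where Ifnar1-/- M2 fell among the females. It ranged from 104.7 to 115.7 against 123.8 to 222.6 CPM in GABAergic neurons, from 54.4 to 82.5 against 119.1 to 134.9 CPM in oligodendrocytes and from 57.2 to 109.3 against 134.7 to 185.2 CPM in microglia. Mdh2 was at 26.3, 23.4, 27.2 and 22.8 CPM in females and 31.5, 34.6, 34.1 and 31.2 CPM in males in glutamatergic neurons, and at 31.9, 38.3, 11.5 and 34.8 against 59.8, 58.5, 86.2 and 55.1 CPM in microglia. Dlst was at 46.1, 40.4, 36.2 and 40.6 CPM in females and 67.6, 72.7, 67.7 and 56.4 CPM in males in glutamatergic neurons (0.63 ± 0.08), and was called in GABAergic neurons (44.8 to 61.8 against 69.8 to 86.8 CPM) and oligodendrocytes (40.4 to 53.8 against 58.3 to 75.6 CPM). Idh3a in oligodendrocytes was at 7.54, 12.4, 10.9 and 7.17 CPM in females and 17.5, 13.1, 17.4 and 24.7 CPM in males. Both remaining genes were lower in males. Aco1 in GABAergic neurons was at 25.9, 24.7, 20.7 and 24.0 CPM in females and 20.7, 16.5, 18.3 and 19.9 CPM in males (-0.42 ± 0.12), and Idh1 in oligodendrocytes was at 24.1, 34.1, 32.8 and 24.5 CPM in females and 28.8, 14.5, 18.1 and 16.7 CPM in males (-0.68 ± 0.22), with overlap.

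Other properties of the libraries moved with sex. In glutamatergic neurons mitochondrially encoded RNA was 0.123 to 0.311% of UMIs in females and 0.345 to 0.810% in males, and the nuclear RNA Malat1 was 6.87 to 8.88% and 5.61 to 7.10%. In oligodendrocytes the mitochondrial share was 0.351 to 1.02% in females and 0.788 to 2.91% in males, and the gauge of free neuronal RNA was at 3.17 to 6.13% and 5.77 to 11.8% of the glutamatergic level. In microglia the gauge was at 4.80 to 11.3% in females and 10.1 to 15.9% in males. After subtraction of free RNA the oligodendrocyte and microglial counts were 8 and 5 genes, and Mdh1 and Mpc2 were still called in both classes. Pdk1 was still called in microglia but was then too low to be tested in oligodendrocytes, and Dlst and Idh1 in oligodendrocytes and Pdp1 in microglia no longer passed. The 35 genes together made up 0.128 to 0.138% of glutamatergic UMIs in females and 0.144 to 0.173% in males.

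The sex difference also went with gene length. Of the 25 genes of the set under 50 kb, 14 (56%) were called higher in males in glutamatergic neurons, with a median of 0.34, whereas of the 9 longer ones, Me3 and Suclg2 among them, 0 were, with a median of -0.05. Over all genes 21.2% of the shorter and 5.41% of the longer were called higher in males. Spearman's rho between length and the sex difference was -0.66 over 34 genes of the set and -0.26 over 18208 genes, a description across genes of the same libraries. The labels give no batch or day of preparation, so sex and any difference in handling between male and female libraries cannot be told apart.

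With the Wt libraries alone, 10, 7, 5 and 6 genes of the set were called between sexes in glutamatergic neurons, GABAergic neurons, oligodendrocytes and microglia, and with the Ifnar1-/- libraries alone, 2 against 2, 1, 0, 0 and 0. The share of all genes called in these fits of 2 against 2 libraries is not given here. Every gene of the set called in glutamatergic neurons over both genotypes was higher in males within each genotype. Their log2 differences in Wt and in Ifnar1-/- mice were, for example, 1.34 and 1.10 for Pdk1 and 0.66 and 0.36 for Ldhb. They were 0.57 and 0.57 for Ldha and 0.62 and 0.64 for Dlst. Whether the sex difference differed between genotypes was not tested. The other lists were counted between sexes over all 8 libraries. In glutamatergic neurons, where 16.5% of all genes were higher and 13.7% lower in males, 7 of 15 glycolytic genes were higher and 1 lower, 2 of 5 transporters higher and 0 lower, and 7 of 18 cycle-linked genes higher and 1 lower. In GABAergic neurons (14.6% and 11%) these were 7 higher and 0 lower of 13, 2 and 0 of 4, and 4 and 2 of 18. Microglia (11.9% and 7.9%) gave 8 and 1 of 13, 0 and 1 of 4, and 3 and 0 of 15. Oligodendrocytes (13.3% and 9.4%) gave 8 and 0 of 12, 2 and 0 of 5, and 4 and 0 of 16.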

How the data were processed

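The counts deposited by the authors are whole UMIs per gene and barcode, made with Cell Ranger 3.1.0 per the file headers on an mm10 reference in which unspliced transcripts counted as exons. The submitters' notes also name Seurat 3.1.5. How reads shared with processed copies of a gene, such as those of Ldha, were counted is not given in the sources used here. The genes and lists were chosen with earlier results of these data known.

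Nuclei with 200 to 6000 genes, over 1000 UMIs and under 10% mitochondrial UMIs were kept. Predicted doublets (1.87 to 6.74% per library) were called with Scrublet, as built into scanpy, and removed. Library pairs shared 3 to 30 barcodes. Nuclei were clustered on 3000 variable genes, 40 components, 15 neighbours and Leiden resolution 1.5 (Python 3.11.15, scanpy 1.11.5, leidenalg 0.10.2), with the 35 genes left out. With them in, 96.5% of nuclei kept their class. Clusters without a clear marker score stayed unnamed, as did very small ones and those of low depth with none of their own markers among their 10 genes of highest fold. Clusters whose 10 genes held more markers of another class than of their own stayed unnamed too, such as a cluster of 1198 nuclei with a glutamatergic score of 0.831. All unnamed nuclei (8414) entered only the sum of all nuclei. The study's own cell annotation was not used here, so classes may differ from the study's.

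UMIs were summed per mouse and class and tested with edgeR 4.0.16 in R 4.3.3 (TMM, filterByExpr, quasi-likelihood test, Benjamini-Hochberg over all genes tested): genotype with no covariate, sex with genotype, and classes with the mouse as a block. CPM values are not TMM scaled. UMIs per library summed to 22829764 to 34346963 in glutamatergic neurons, 173791 to 1269943 in microglia and 18758 to 133715 in astrocytes, and low sums limit the precision. DESeq2 1.42.0, library size scaling, no count filter, sex or replicate blocks, kept doublets, subtracted free RNA and leaving out each library were alternatives, and single-sex and single-genotype fits were added after seeing the data. On simulated counts, 2-fold genotype changes were recovered for 84% of changed genes in glutamatergic neurons (18220 genes), 81% in GABAergic neurons (14640 genes), 75% in oligodendrocytes (11061 genes) and 65% in microglia (9558 genes). The simulated counts held no sex difference, and their dispersion was estimated with sex in the model. The real genotype fit left sex out, so these rates may overstate its recovery for genes that vary with sex. Same-label libraries (F1, F2, M1, M2) deviated together across genotypes, with r of 0.528, 0.62, 0.647 and 0.433 in glutamatergic neurons and 0.297, 0.576, 0.528 and 0.522 in oligodendrocytes, but the labels also carry sex, and same-sex libraries with other numbers gave 0.406 to 0.753.

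Values per library are given for isoform families, genes called between sexes, up to 6 called genes with the largest fold per class comparison, and the gene with the smallest p per genotype comparison. For groups of 8 libraries these are the lowest, median and highest value, and for some genes called between sexes outside glutamatergic neurons the lowest and highest of each sex. Gene positions are from GENCODE vM21 (GRCm38). The result of 1 further gene of a pathway list is not reported here.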

Additional observations from a re-analysis of the deposited data

Results flagged for a closer look

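Among 138 groups of 4 libraries of 1 sex or of 1 genotype, 5 held a value apart from the other 3 by Dixon's criterion, where chance gives about 1 in 20 groups. In males, Ifnar1-/- M2 was low for Ldhb in glutamatergic neurons (41.4 CPM, the others 59.6 to 60.3), for Pdhb in glutamatergic neurons (31.8 CPM, the others 41.8 to 42.3), for Pdhb in GABAergic neurons (49.6 CPM, the others 69.1 to 71.4) and for Ldhb in oligodendrocytes (73.5 CPM, the others 92.4 to 94.4). In microglia of males, Ifnar1-/- M1 was high for Mdh2, at 86.2 CPM where the others lay at 55.1 to 59.8. Ifnar1-/- M2 also had the highest mitochondrial share of glutamatergic UMIs, 0.810%, and the part of that share in its values was not tested.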

How the results depend on the processing

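Counts of called genes were within 1.5 times the reported count in 277 of 286 alternatives over 20 comparisons. These 277 include the genotype and interaction comparisons, whose count was 0 and stayed 0 in every alternative. Between sexes, glutamatergic neurons gave 9 without Ifnar1-/- M1 and 1 with Ifnar1-/- libraries only, GABAergic neurons 7 with Wt only and 0 with Ifnar1-/- only, oligodendrocytes 6 without Wt M2, 5 with Wt only and 0 with Ifnar1-/- only, and microglia 0 with Ifnar1-/- only. These single-genotype fits compare 2 with 2 libraries. Astrocytes gave 18 in place of 11 called against glutamatergic neurons with free RNA subtracted. The share of all genes called in that fit is not given here, and the cause was not tested. Leaving out 1 library at a time changed the number of genes called between sexes to 9 to 16 (glutamatergic neurons), 9 to 12 (GABAergic), 6 to 9 (oligodendrocytes) and 4 to 9 (microglia). For class comparisons it gave 4 to 4, 12 to 13, 8 to 9 and 8 to 12 for GABAergic neurons, oligodendrocytes, microglia and astrocytes against glutamatergic neurons, 10 to 10 for microglia against oligodendrocytes, 3 to 3 for Pvalb interneurons and 5 to 8 for precursors. Genotype and interaction counts ranged from 0 to 0. With the replicate block the genotype count was 0 in each class fitted, as without it, and an unadjusted p under 0.05 was found for Dlst in GABAergic neurons and Pdha1 in oligodendrocytes and microglia. Without the mouse block, oligodendrocytes gave 13 and astrocytes 11 called genes against glutamatergic neurons, and precursors 5.

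Of 1269 alternative log2 differences of named genes, 1131 kept their side of the threshold, 138 no longer passed and 0 reversed. Of 736 alternative isoform shares 6 moved by more than the spread between libraries. Among these, subtraction of free RNA took Me3 to 0% of malic enzyme UMIs in oligodendrocytes and in microglia. In simulated data without a sex difference 65% of 2-fold genotype changes were recovered in microglia and 84% in glutamatergic neurons, and astrocytes were not simulated.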
